A study of Homo sapiens with 3 samples.

Results

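The SLCO genes encode the organic anion transporting polypeptides, a family of membrane proteins that carry amphipathic compounds into cells. Their substrates include bile salts, steroid conjugates, thyroid hormones, prostaglandins and many drugs. Members differ in where they act: some are known for uptake into hepatocytes, some for work in the kidney, and several for exchange at the blood-brain barrier, the sheet of endothelium that separates blood from brain tissue. The 10 genes SLCO1A2, SLCO1B1, SLCO1B3, SLCO1C1, SLCO2A1, SLCO2B1, SLCO3A1, SLCO4A1, SLCO4C1 and SLCO5A1 were taken by symbol from 20033 protein-coding genes of a RefSeq gene table. They are described here by the accessible chromatin called in each gene and 10 kb on either side of it.

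The cells were hCMEC/D3, an immortalized human line of brain microvascular endothelium, used between passages 4 and 6 and grown until confluent on a collagen coat. A single ATAC-seq library, labelled replicate 2, was analysed, with no second condition or cell type. ATAC-seq inserts adapters into DNA that is open to the Tn5 transposase, and a peak is a region where such insertions pile up. The authors' list holds 106415 broad peaks from 22188172 tags. Pileup is the number of overlapping extended tags averaged over the called peak, not its height at a summit. Fold compares that pileup with a local background from 10 kb of the same library, or with a genome-wide floor where the floor is higher. A long peak adds to its own local background. Where the floor applies, as at many member peaks, fold follows from pileup and is not a separate measure. Pileup and fold are the authors' own values. Because there was 1 library, no value below has a replicate error and no test was made. In a bulk library, a site open in few cells and a site weakly open in many cannot be told apart. The endothelial label was checked against 11 endothelial marker genes, all of which had a peak within 1 kb of a gene end. Their highest end pileups ran from 10.98 tags at ERG to 75.0 tags at EGFL7, with 62.6 tags at CDH5. End peaks were also present at 5 of 5 markers of pericytes and smooth muscle, 4 of 4 of neurons, 4 of 6 of hepatocytes and 2 of 4 of astrocytes. The highest on these lists were RGS5 (56.8 tags), SYT1 (48.0 tags), APOA1 (54.8 tags) and ALDH1L1 (31.0 tags), all within the endothelial range. Of all protein-coding genes 72.8% had one, and among genes of the lengths of these 5 marker lists the mean shares ran from 71.3% to 79.8%, so an end peak alone does not set a cell type apart. With the flanks included, 5 of 6 hepatocyte markers and 3 of 4 astrocyte markers had a peak, and only ALB and AQP4 had none. Among genes of the lengths of these lists, the mean shares without a peak were 10.7% and 5.9%.

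Promoter sequences are shown first, since the windows that lay under a peak and those that did not differed in their number of CG pairs. The RefSeq promoter table, on GRCh38.p14, held 9 windows for 6 of the members, each running from 250 bases before a start to 50 bases after it. SLCO1C1, SLCO2A1, SLCO4A1 and SLCO5A1 had no entry. The windows of SLCO4C1 (chr5:102296235-102296534, minus strand) and of the upstream start of SLCO3A1 (chr15:91853458-91853757, plus strand) are shown with the bases under a called peak in capitals. Of the 6 members with an entry, these had a listed start under a peak.
SLCO4C1: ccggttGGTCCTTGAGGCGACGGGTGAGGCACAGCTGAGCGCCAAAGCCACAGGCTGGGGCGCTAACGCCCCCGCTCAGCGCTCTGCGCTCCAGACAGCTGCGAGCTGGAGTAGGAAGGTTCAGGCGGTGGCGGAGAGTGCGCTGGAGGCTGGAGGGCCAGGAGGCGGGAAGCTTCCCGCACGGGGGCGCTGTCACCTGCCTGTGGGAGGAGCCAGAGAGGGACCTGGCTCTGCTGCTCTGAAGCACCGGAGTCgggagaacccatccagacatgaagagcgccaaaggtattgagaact
SLCO3A1: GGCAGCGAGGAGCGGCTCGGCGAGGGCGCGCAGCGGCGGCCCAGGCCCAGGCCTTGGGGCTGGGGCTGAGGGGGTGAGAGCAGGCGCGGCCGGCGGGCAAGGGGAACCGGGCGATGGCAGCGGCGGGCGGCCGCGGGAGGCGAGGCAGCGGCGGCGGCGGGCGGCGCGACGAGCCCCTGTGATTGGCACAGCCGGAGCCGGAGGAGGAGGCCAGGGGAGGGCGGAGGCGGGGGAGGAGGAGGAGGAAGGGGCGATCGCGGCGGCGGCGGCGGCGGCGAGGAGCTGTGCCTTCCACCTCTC

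In SLCO4C1, 248 of the 300 bases lay under the peak, and in this SLCO3A1 window all 300 did. A second SLCO3A1 window, for a start further into the gene (chr15:91854054-91854353), had 224 bases under the same peak. The SLCO4C1 window held 20 CG pairs at 66.0% GC, and the SLCO3A1 windows held 41 and 38 CG pairs at 80% and 78.7% GC.

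The windows of the liver transporter genes SLCO1B1 (chr12:21130944-21131243, plus strand) and SLCO1B3 (chr12:20810455-20810754, plus strand) had no base under a peak and are shown for contrast. Capitals mark the letters GTTAAT or their reverse complement, letters found in sites of the hepatocyte factor HNF1.
SLCO1B1: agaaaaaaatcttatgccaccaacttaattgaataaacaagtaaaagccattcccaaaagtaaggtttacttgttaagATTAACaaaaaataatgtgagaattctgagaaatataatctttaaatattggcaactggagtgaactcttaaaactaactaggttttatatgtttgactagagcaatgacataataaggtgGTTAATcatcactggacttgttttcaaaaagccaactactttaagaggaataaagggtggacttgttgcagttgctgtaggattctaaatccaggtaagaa
SLCO1B3: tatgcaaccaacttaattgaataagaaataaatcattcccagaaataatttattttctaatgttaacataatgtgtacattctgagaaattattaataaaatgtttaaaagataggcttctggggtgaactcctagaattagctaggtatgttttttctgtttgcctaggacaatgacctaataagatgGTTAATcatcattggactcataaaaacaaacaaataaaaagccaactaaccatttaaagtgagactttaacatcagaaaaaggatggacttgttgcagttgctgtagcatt

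Both windows lack CG pairs, at 31.3% and 30% GC. A local alignment of this pair spanned 311 columns, of which 221 (71.1%) were identical. The window at the inner start of SLCO2B1 (chr11:75159582-75159881, plus strand) is shown because a peak lay 603 bp downstream of that start while no base of the window was under it.
SLCO2B1: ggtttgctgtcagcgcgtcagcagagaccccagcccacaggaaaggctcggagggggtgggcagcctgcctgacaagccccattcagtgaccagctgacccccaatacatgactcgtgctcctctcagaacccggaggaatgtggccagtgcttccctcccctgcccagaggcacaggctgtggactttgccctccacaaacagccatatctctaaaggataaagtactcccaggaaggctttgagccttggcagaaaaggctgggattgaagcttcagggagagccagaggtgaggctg

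This SLCO2B1 window held 5 CG pairs at 58.7% GC. The window at the outer start of SLCO2B1 held 2 CG pairs, and the windows of SLCO1A2 held 2 and 0.

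Over all 22198 promoter windows of protein-coding genes, the share overlapping a peak was 13.7% with 0 to 4 CG pairs (95% Wilson interval 12.7% to 14.8%) and 30.4% with 5 to 9 (28.7% to 32.2%). It was 66.9% with 10 to 19 CG pairs, 88.8% with 20 to 29 and 89.7% with 30 to 69. The intervals treat windows as independent, though a gene can have several, and they measure no spread between replicates. The member windows under a peak, those of SLCO4C1 and SLCO3A1, fell in the groups with 20 or more CG pairs. The 6 member windows without an overlap, from SLCO1A2, SLCO1B1, SLCO1B3 and SLCO2B1, all held 5 or fewer CG pairs.

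**Figure D1:**
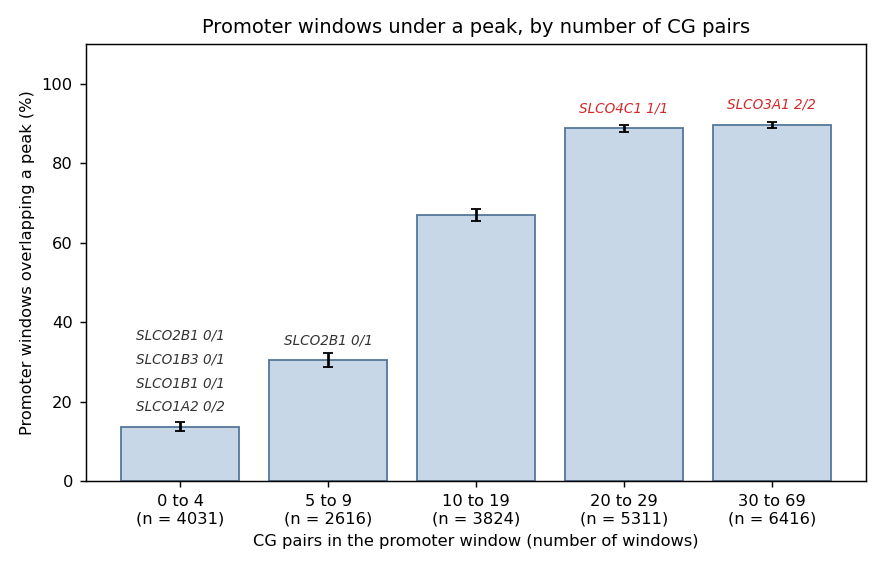
Share of promoter windows overlapping an ATAC peak (%, bars, with 95% Wilson intervals as error bars) by number of CG pairs in the window, for 22198 windows. Gene names give, for each SLCO gene, windows under a peak out of its windows in that group (red where any is under a peak); SLCO4C1 and SLCO3A1 sit in the groups at 88.8% and 89.7%, and SLCO1A2, SLCO1B1, SLCO1B3 and SLCO2B1 in those at 13.7% and 30.4%; the other 4 genes have no window.

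Short motifs were then searched on both strands of the 9 member windows. The HNF1-type letters GTTAAT occurred in windows of SLCO1A2, SLCO1B1 and SLCO1B3, 3 of 9 windows, compared with 5.55% of all windows. These 3 windows have 35.3%, 31.3% and 30% GC, and the share among windows of like GC was not measured. The SLCO1B1 and SLCO1B3 windows are also alike in sequence, as aligned above. The GC box GGGCGG occurred in both SLCO3A1 windows and in no other member window, compared with 56.3% of all windows. The ETS-type letters AGGAAG, read by a factor family active in endothelium, occurred in 4 member windows, of SLCO2B1, SLCO3A1 and SLCO4C1 (33.5% of all windows), and the TATA box TATAAA only in that of SLCO1B1 (9.47%). The letters CCGGAA (21.2% of all windows), ACAAAG (13.6%), CACGTG (8.34%) and the AP-1 site TGANTCA (6.15%) were in none of the 9. A match describes letters only and is not evidence of a bound factor.

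Across the family, 8 of 10 members had at least 1 peak in the gene or 10 kb either side, compared with 89.8% of all protein-coding genes. A peak within 1 kb of either gene end was present at 5 of 10 members (SLCO2A1, SLCO3A1, SLCO4A1, SLCO4C1 and SLCO5A1), compared with 72.8% of protein-coding genes and a mean of 79.2% among genes of the members' lengths. For the 6 members with a promoter entry, a peak within 1 kb of a start was present at 3 (SLCO2B1, SLCO3A1 and SLCO4C1), compared with 74.0% of the 15842 protein-coding genes that have an entry. In all, 46 peaks were found, none counted for more than 1 member. They were unevenly spread, with 34 of the 46 in 4 genes: SLCO2A1 with 13, and SLCO1A2, SLCO3A1 and SLCO4A1 with 7 each. Of the 46, 31 lay inside a gene, 10 in a flank and 5 at an end. Among peaks assigned to all protein-coding genes in the same way, 53.9% lay inside, 26.4% in a flank and 19.7% at an end. These shares were not matched for gene length, while the flank and end windows are of fixed size.

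**Figure D2:**
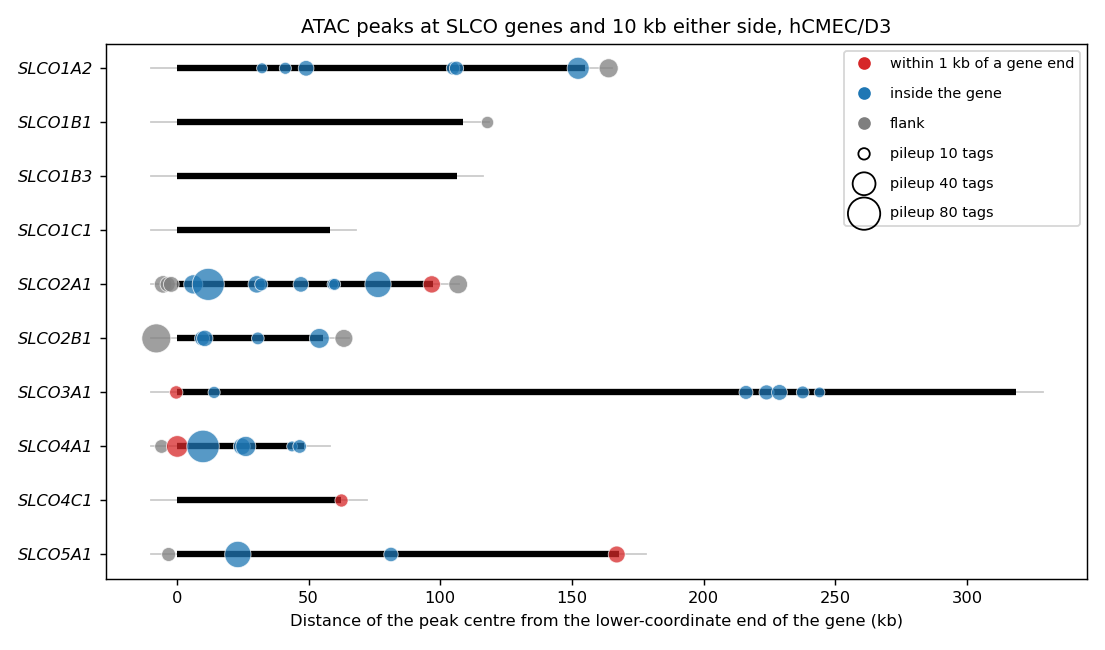
Position of each ATAC peak along the 10 SLCO genes, as kb from the lower-coordinate end of the gene to the peak centre; black bars are genes, grey lines the 10 kb flanks, point area is proportional to pileup (tags) and colour gives the position class. SLCO1B3 and SLCO1C1 carry no point, and SLCO2A1 carries 13.

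The members were next set beside genes of their own length, since long genes have more room for peaks. For each member, the 500 protein-coding genes nearest in length outside the family were taken. On average 3.80% of such genes had no peak at all. SLCO2A1, SLCO2B1 and SLCO4A1 had more peaks than the median gene of their length, and the other 7 members had fewer.

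**Figure D3:**
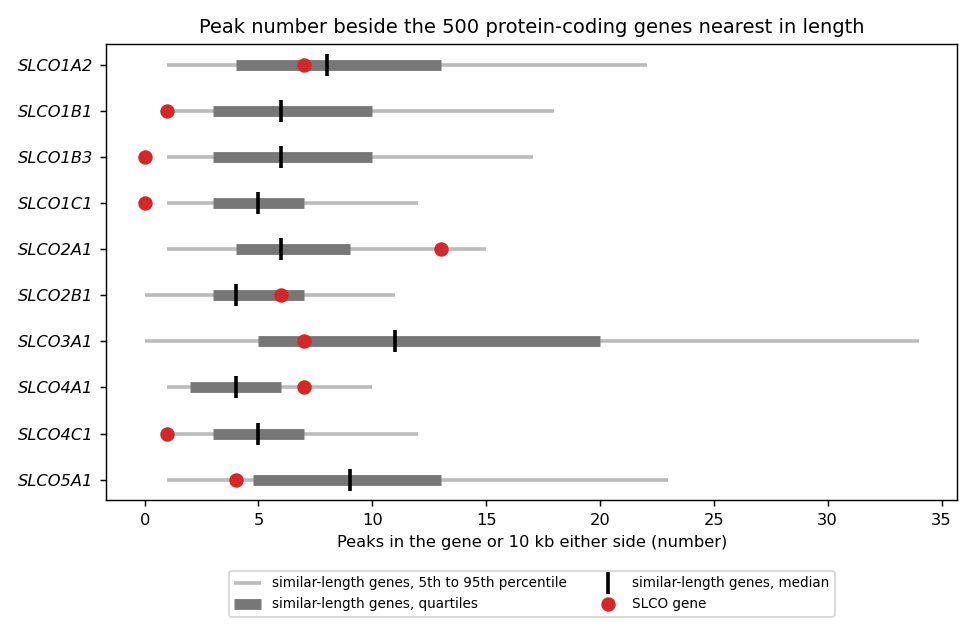
Number of ATAC peaks in each SLCO gene or 10 kb either side (red points) beside the 500 protein-coding genes nearest in length (black mark, median; dark bar, quartiles; light bar, 5th to 95th percentile). SLCO2A1 (13 peaks) lies above the upper quartile of 9, and SLCO1B3 and SLCO1C1 lie at 0.

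Of the transporters known from brain endothelium, SLCO1C1, which carries thyroxine across the barrier, had no peak. The gene spans 58.1 kb on chromosome 12 (20695332 to 20753386, GRCh38), and the nearest peak lay 144 kb away, at 20551352 to 20551655, with a pileup of 23.5 tags. Of the 500 genes of similar length, 18 (3.60%) also had no peak, and their median was 5 peaks. SLCO1C1 was thus not detectable as accessible at this depth, where the lowest pileup in the list was 8.0 tags.

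SLCO1A2, a carrier of bile salts, steroid conjugates and drugs described at the human blood-brain barrier, had 7 peaks, close to the median of 8 for its length (155 kb; chromosome 12, 21264600 to 21419634). None lay at a gene end or within 12.8 kb of a listed start. Its 6 peaks inside the gene had pileups of 9.0, 11.1, 18.8, 13.8, 15.4 and 37.2 tags in order of position. The strongest of these, at 21416469 to 21417389, was 921 bp long with a fold of 7.33 and lay 2.25 kb from the higher-coordinate end, so it falls outside the 1 kb window. A flank peak at 21428260 to 21428759 reached 27.8 tags and the highest fold in this gene, 8.54. The peaks of 13.8 and 15.4 tags, at 21369236 to 21369649 and 21370426 to 21371084, also lie within IAPP, the islet amyloid polypeptide gene nested in SLCO1A2, and cannot be given to either gene.

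SLCO2B1, a broadly expressed carrier of steroid sulphates and drugs, had 6 peaks against a median of 4 for its length (55.4 kb; chromosome 11, 75151107 to 75206549). The highest lay outside the gene, 7.57 kb before the outer start, at 75143081 to 75143536, with 64.5 tags, above 95.3% of all peaks in the list, and a 9.93-fold enrichment. A pair of peaks followed the inner start, at 75160435 to 75160909 with 17.2 tags and at 75161520 to 75161889 with 20.5 tags. The next, at 75181740 to 75181949, had 12.3 tags. Near the far end, a peak at 75204913 to 75205471 with 29.96 tags and a fold of 8.87 lay 1078 bp from the gene end, just beyond the 1 kb window and within 1 kb of the antisense gene TPBGL-AS1. The last, in the flank at 75214295 to 75214731, had 24.6 tags inside TPBGL-AS1. The highest fold of SLCO2B1 exceeded that of 96.8% of similar-length genes with a peak.

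SLCO2A1, which takes up prostaglandins from the extracellular space, had the most peaks in the family as counted here. This rank did not hold with a fold of at least 4 or with flanks of 50 kb. The 13 peaks of SLCO2A1 were more than in 89.2% of genes of its length (97.2 kb, chromosome 3, 133932701 to 134029925), whose median was 6. The strongest, at 133943640 to 133945610, was 1971 bp long, longer than 99.3% of all peaks, and had a pileup of 78.7 tags, above 98.5% of the list. Its fold was 3.87, below the list median of 4.49. A peak of this length adds to its own local background, and how far this lowered the fold was not tested. A second strong peak at 134008494 to 134009616 reached 53.1 tags with a fold of 6.29, the highest in the gene. The peak at the higher-coordinate end, at 134028697 to 134030237, covered the gene end over 1541 bp, with 22.8 tags and a fold of 3.70. Across 14591 genes with peaks at an end, 16% had a lower highest end pileup. The other 6 inside peaks ran from 10.1 to 28.0 tags. Of the 4 flank peaks, 3 lay 2.02 to 4.82 kb beyond the lower-coordinate end, in or within 1 kb of C3orf36, a long noncoding RNA gene, at 17.5 to 23.3 tags. The fourth lay 9.21 kb beyond the other end, with 26.9 tags.

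The liver uptake transporters SLCO1B1 and SLCO1B3, which carry bilirubin conjugates, bile acids and statins into hepatocytes, had almost no called accessibility. SLCO1B3 (106 kb; chromosome 12, 20810705 to 20916911) had no peak, and the nearest lay 33.4 kb away at 20950299 to 20950567, with 11.8 tags. Among genes of its length 3.20% had none. SLCO1B1 (109 kb; chromosome 12, 21131194 to 21239796) had no peak inside the gene and a single flank peak 8.95 kb beyond its far end, at 21248744 to 21248987, with 11.7 tags and a 3.77-fold enrichment. Its similar-length genes had a median of 6 peaks, and 9.80% had 1 or none.

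SLCO1C1, SLCO1B3 and SLCO1B1 are neighbours on chromosome 12. The 544 kb from the lower-coordinate end of SLCO1C1 to the far end of SLCO1B1 held 1 peak, or 1.84 per Mb, compared with 38.8 per Mb over the chromosome. Of 1328 windows of that length stepped along the chromosome by 100 kb, 13.7% held at most 1 peak, and the median window held 18. No stretch was left out, the centromere included, and the share of windows where no peak could be called was not measured.

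SLCO3A1, a widely expressed carrier of prostaglandins and thyroxine, is the longest member (319 kb; chromosome 15, 91853708 to 92172435). It had 7 peaks, fewer than the median of 11 for its length. The peak over its start, at 91852668 to 91854277, was 1610 bp long, longer than 97.8% of all peaks. Its pileup was 13.6 tags, averaged over that length, at a 3.60-fold enrichment. Of the genes with an end peak, 5.81% had a lower end pileup. A small peak of 11.3 tags lay 14 kb into the gene. No further peak was called for 202 kb, and the remaining 5 then fell within 28.2 kb, between 216 and 244 kb from the start, with pileups from 8.68 to 19.2 tags. No SLCO3A1 peak reached the list's median pileup of 21.6 tags, and its highest pileup was above that of 8.53% of similar-length genes with a peak.

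SLCO4A1, a widely expressed carrier of thyroid hormone, had 7 peaks in a gene of 48.2 kb (chromosome 20, 62642503 to 62690740), more than in 77% of genes of its length. A peak of 1568 bp covered the lower-coordinate end, at 62641882 to 62643449, with 35.7 tags, the highest end pileup in the family; 32.2% of genes with an end peak had a lower one. The highest pileup of all 46 peaks, 80.8 tags at a fold of 7.47, belonged to a peak inside the gene, 9.51 kb from that end, at 62652009 to 62652869. That peak overlaps an end of the antisense gene SLCO4A1-AS2. Another, at 62666944 to 62667369 with 21.9 tags, lay beside SLCO4A1-AS1, and the next at 62668480 to 62668835 had 31.0 tags. The peaks toward the higher-coordinate end were weaker, with 8.86 and 14.3 tags, and the flank peak had 14.5 tags.

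SLCO4C1, known for uptake of cardiac glycosides and thyroid hormone in the kidney, had a single peak, at its start (62.3 kb; chromosome 5, 102233986 to 102296284). The peak at 102296281 to 102296528 was 248 bp long, with 13.2 tags, a 4.21-fold enrichment and −log10 q of 4.96. This is the peak marked in capitals in the sequence above. Of similar-length genes with a peak, 2.69% had a lower highest pileup, and of genes with an end peak, 5.33% had a lower end pileup.

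SLCO5A1, whose substrates are little known, had 4 peaks in 168 kb on chromosome 8, against a median of 9 for its length. A peak of 364 bp inside the gene, 23.0 kb from its lower-coordinate end, reached 53.2 tags at a fold of 15.5, rank 3 of the 106415 peaks by fold. By pileup, 90% of the list was lower. The peak at the higher-coordinate end, 2151 bp long, was the longest in the family, with 21.9 tags and a fold of 3.81, and also overlaps the antisense gene SLCO5A1-AS1. The remaining peaks, 81.1 kb from the lower-coordinate end inside the gene and 2.94 kb outside that end, had 15.9 and 15.1 tags.

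As a set, the member peaks were shorter and lower than the list as a whole. Their median length was 367 bp (452 bp in the list), and 16 of 46 were longer than the list median. Their median pileup was 18.0 tags (21.6 in the list), with 18 of 46 above. Their median fold of 4.46 was close to the list's 4.49, with 23 of 46 above it. The list also holds peaks away from genes, so peaks were compared by position with those of all protein-coding genes. Inside peaks of members had medians of 339 bp and 17.2 tags, compared with 417 bp and 20.5 tags. Flank peaks had medians of 404 bp and 21.1 tags, compared with 484 bp and 27.1 tags. The median pileup of the 5 end peaks was 21.9 tags, compared with 41.4 tags over end peaks of all protein-coding genes, and a median length of 1568 bp, compared with 970 bp. All 5 end peaks of members, at 13.2 to 35.7 tags, lay below that median pileup. Apart from the SLCO4C1 peak of 248 bp, they were longer than the median of 970 bp.

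**Figure D4:**
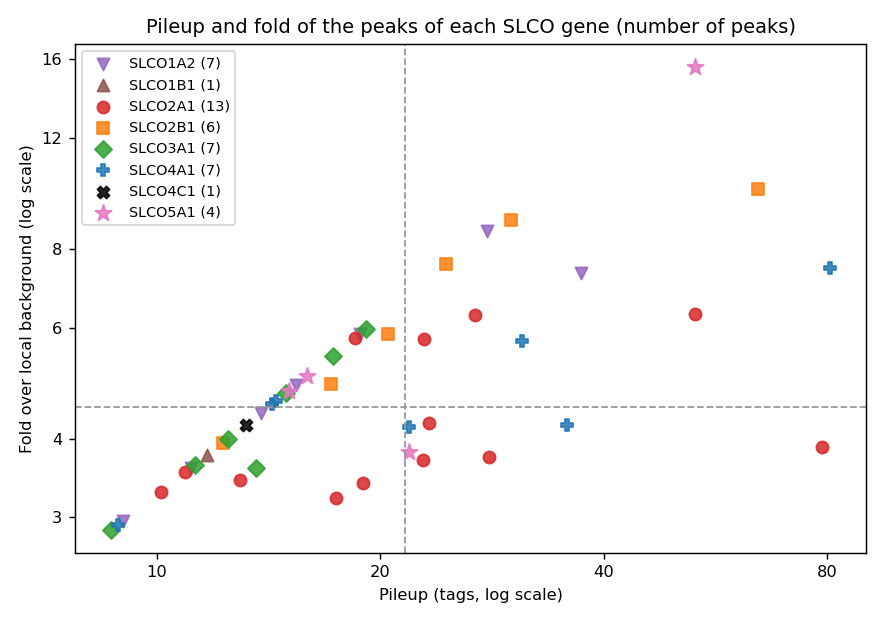
Pileup (tags, log scale) against fold over background (local, or the genome-wide floor where higher, log scale) for the 46 peaks, 1 symbol per SLCO gene. Dashed lines are the medians of the whole list, 21.6 tags and 4.49-fold. A peak of SLCO5A1 stands highest in fold at 15.5, and the strongest peak of SLCO2A1 joins 78.7 tags to a fold of 3.87.

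Genes that work with these transporters were placed in the same way, from lists chosen by function. Of 8 efflux pumps for drugs and organic anions, all had a peak and 7 had an end peak (87.5%, near the mean of 79.1% among genes of their lengths), with the highest end pileups at ABCC5 (62.5 tags) and ABCC4 (60.3 tags); ABCC2, an apical pump of hepatocytes, was the member without one. All 14 prostaglandin genes had an end peak, compared with a mean of 72.8% among genes of their lengths. PTGER4, a receptor for prostaglandin E, had 80.8 tags, and CBR1, a carbonyl reductase, 55.5 tags. HPGD, which inactivates the prostaglandins that SLCO2A1 brings in, had the lowest, 12.8 tags. Of 11 thyroid hormone genes, 5 had an end peak (45.5%, compared with a mean of 75.6% for their lengths), led by the transporter gene SLC7A5 (79.2 tags) and the receptor gene THRA (31.3 tags). DIO3 and TTR, a deiodinase and the carrier protein transthyretin, had no peak.

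Of 11 carriers of the SLC22 family, 4 had an end peak (36.4%, compared with a mean of 77.3% for their lengths). The highest were SLC22A4 (77.6 tags) and SLC22A5 (47.7 tags), carriers of zwitterions and carnitine, and SLC22A9 had no peak. Of 9 bile acid and steroid conjugate genes, 4 had an end peak (44.4%, compared with 75.2% for their lengths), with STS, the steroid sulphatase, at 38.4 tags and GPBAR1, a bile acid receptor, at 32.3 tags; CYP7A1 and SLC10A2 had no peak. Of 7 liver-enriched regulators, 4 had an end peak (57.1%, compared with 74.8% for their lengths), the highest at CEBPA (25.2 tags) and NR1H4 (24.3 tags), and FOXA2 had no peak. No list was tested against another.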

How the data were processed

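The authors called broad peaks with MACS 2.2.7.1 on 1 library without a control, per the file headers. Tags were shifted by -100 bp and extended to 200 bp, 22188172 of 31532245 tags were kept (1 per position), and the effective genome size was 1870000000, the mouse setting of the caller, which raises the background floor and so lowers fold where few tags surround a peak. Each deposited peak has a length, a pileup signal in tags, a fold ratio over background (local or the floor), and −log10 p-value and −log10 q-value. The submitters' processing notes list Bowtie2, SAMtools 1.13, Picard and MACS2, and the builds GRCh38 and mm10, with no role. The peaks lie on the 24 human chromosomes. Of 22198 RefSeq promoter windows (GRCh38.p14), 64.8% overlapped a peak, and 4.95% to 6.47% did when peaks were moved by 2 to 50 kb.

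Peaks were counted with Python 3.11.15 and pandas 2.3.3, with an overlap of at least 1 bp, in each gene and 10 kb either side; code was tested on simulated peaks. A peak was at an end within 1 kb of either end, otherwise inside or in a flank. The gene table holds no exons, so exons and introns were not told apart. All members were described, each with its end peaks and its strongest, longest and highest-fold peak; from each list, the genes with the highest end pileup and up to 2 without a peak. ABCC2, HPGD and ERG were added after their values were seen. Members, lists and groups of CG pairs were chosen with earlier results of these data known. RNA tables were not used, because no table used here pairs their transcripts with genes. Protein identity was not analysed here.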

Additional observations from a re-analysis of the deposited data

How the results depend on the processing

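Settings were changed singly: flank, end window, peak filter, overlap, peaks at ends of other protein-coding genes, and the choice of similar-length genes. Of 34 values over the whole family, 27 stayed within 1.5-fold (for the share of similar-length genes, within its 95% Wilson interval) and 7 moved. The 46 peaks became 71 with flanks of 50 kb and 28 with a fold of at least 4. Members with an end peak fell from 5 to 3 with −log10 q of at least 5 (SLCO3A1 and SLCO4C1 lost theirs) and to 2 with a fold of at least 4. Members with a start peak fell from 3 to 1 under the q filter, and to 2 under the fold filter or with a window of 500 bp. Similar-length genes without a peak rose from 3.80% to 6.44% under the q filter and 6.30% under the fold filter, which leave fewer peaks. Of 166 values for single members, 129 stayed and 37 moved. An overlap of at least 200 bp left the peaks of every member unchanged, and no member peak is shorter than 200 bp. Leaving out peaks at ends of other protein-coding genes removed none of the 46 member peaks. Values under these settings, which could change little, are counted among those that stayed. SLCO2A1 fell from 13 peaks to 8 under the q filter and to 5 under the fold filter. SLCO4A1 had 6 peaks under either filter. With 50 kb flanks SLCO4A1 had 17 peaks and SLCO2A1 had 16. SLCO1C1 had no peak in any setting, 50 kb flanks included; SLCO1B3 gained a peak with 50 kb flanks only, and SLCO1B1 lost its peak without flanks or under either filter.

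No paired analysis was possible because a single ATAC library was used and no test was made. The lowest pileup in the list was 8.0 tags, so weaker sites were not detectable at this depth. Counting error, with no replicate, limits every pileup.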

Other observations

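Other genes of the family were placed in the same way. SLCO6A1, a testis-enriched member next to SLCO4C1 on chromosome 5 (102371774 to 102499001), had no peak in the gene or 10 kb either side, and the nearest lay 46.3 kb away; of genes of its length, 2.60% had none. SLCO1B3-SLCO1B7, a readthrough gene of 276 kb on chromosome 12, held 1 peak, at 20950299 to 20950567 with a pileup of 11.8 tags, the peak nearest to SLCO1B3. Of the antisense genes, SLCO4A1-AS1, SLCO4A1-AS2 and SLCO5A1-AS1 each had an end peak, and in each case the peak was also counted for the SLCO gene it opposes. ATAC peaks carry no strand, so the peak of 80.8 tags inside SLCO4A1 cannot be told apart as belonging to SLCO4A1 or to SLCO4A1-AS2.

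In SLCO2A1, SLCO3A1, SLCO4A1 and SLCO5A1, which had an end peak among several, the strongest peak by pileup lay away from the ends. It had 78.7, 19.2, 80.8 and 53.2 tags, compared with 22.8, 13.6, 35.7 and 21.9 tags at the end. Of the 46 member peaks only 5 lay at an end. The end peaks of these genes were 1541 to 2151 bp long, and pileup is averaged over that length. The share of other genes with the same order was not measured. This was noticed in the values and was not tested.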
